A study of Homo sapiens with 6 samples.

Results

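The genes described here encode the nuclear part of the oxidative phosphorylation machinery, the 5 enzyme complexes of the inner mitochondrial membrane. Transcripts were taken by gene name (NDUF, UQCR, COX4, COX5, COX6, COX7, COX8 or ATP5 at the start of the name, or SDHA, SDHB, SDHC, SDHD or CYC1) and by an NM or XM accession, a rule that has no measured value in it. This gave 146 transcripts of 91 genes, of 38438 transcripts in the mRNA-seq table. Sorted by what their proteins do, 44 genes belong to complex I (7 core subunits, 30 accessory subunits and 7 assembly factors), 4 to complex II, 9 to complex III, 16 to complex IV and 16 to complex V, and 2 genes, ATP5S and ATP5SL, carry an ATP5 name although current RefSeq symbols for them are DMAC2L and DMAC2. The names are those of the deposited table, so that NDUFA4, for which RefSeq now has COXFA4, is counted with complex IV. COX7A2L is also counted there, and NDUFC2-KCTD14, listed apart from NDUFC2, is counted as an accessory subunit of complex I. A further 8 nameless mRNA lines that RefSeq assigns to the same genes were not members and entered only the gene totals.

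In oxidative phosphorylation, complex I (NADH dehydrogenase) and complex II (succinate dehydrogenase) pass electrons through ubiquinone to complex III (cytochrome bc1), cytochrome c carries them to complex IV (cytochrome c oxidase), and complex V (ATP synthase) uses the resulting proton gradient to make ATP. Most subunits are translated from nuclear mRNAs in the cytosol and imported. The mTOR kinase controls the translation of mRNAs whose first nucleotides form a terminal oligopyrimidine (TOP) tract, which is a C at the cap followed by pyrimidines. LARP1 is an RNA-binding protein known for its contacts with such mRNAs, above all those that encode ribosomal proteins (RPs).

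All libraries came from HEK293T, an established line derived from human embryonic kidney and carrying SV40 large T antigen, kept under growing conditions or made mTOR-inactive with 2.5 µM PP242, a mTOR kinase inhibitor. Contacts of LARP1 with RNA were mapped by PAR-CLIP, in which cells take up 4-thiouridine (100 µM for 14 hr) and ultraviolet light crosslinks it to bound protein, with 1 library per condition. The mRNA-seq data hold 2 libraries per condition. The study's methods speak of replicate mRNA-seq experiments and, in general terms, of independent experiments, but not of how these 2 libraries were grown, so that p-values measure the spread between these libraries, which may be technical. PAR-CLIP differences between conditions have no replicate check and no p-value.

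The files do not state the read depth of the libraries. They list RPKM (reads normalised to the mapped reads of the library and to transcript length) and RPM (reads normalised to mapped reads alone). No counting error is given, since it is not known whether the T-to-C column of the site lists counts reads. Among sites of at least 1 RPM, its most frequent (usual) multiple of RPM was 25.8 (growing) or 28.3 (mTOR-inactive), with very low multiples left out. The label HEK293T was checked against marker genes. VIM lay between 209.8 and 238.6 RPKM, KRT18 between 18.6 and 20.1 and NEFM between 15.7 and 18.2 RPKM. NEFL (6.79 to 7.61 RPKM) and KRT8 (2.87 to 3.19 RPKM) were lower, and PAX2 (0.116 to 0.136 RPKM) and LHX1 (0.660 to 1.04 RPKM) were near 0. Of the markers of other tissues given here, COL1A1 was at 1.76 to 1.84 RPKM, and PTPRC, ALB, MYH7, ACTC1, CKM and GFAP did not exceed 0.222 RPKM in a library.

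Since TOP tracts lie at the very start of an mRNA, the annotated start sites of the members were read first. Promoter windows from RefSeq (build GRCh38.p14, 250 bases before to 50 after a start) matched 74 of the 92 current symbols of these genes. A TOP-like start was defined as a C at the first transcribed base followed by at least 4 pyrimidines, at any annotated start of the gene. It was found in 9 of 74 genes (12.2%). The share was 7.70% of 8888 expressed genes with a window, 71.6% of 67 cytoplasmic RP genes and 8.70% of 69 mitochondrial RP genes. Over all windows of the same length in the table it was 4.07%. An annotated start is not a measured cap site, and several of these genes have more than 1 start. The 9 starts are shown because they resemble the start of RP mRNAs; each line gives 10 bases before and 20 bases from the start, 5′ to 3′ on the strand of the gene, with the uninterrupted pyrimidine run in capitals.
COX7C (chr5:86617931-86617960, plus strand): tcccatctttCTTTTCagtccttgcgcacc
COX4I1 (chr16:85799685-85799714, plus strand): cggccttgctCTCTTCCggtcgcgggacac
COX7A2L (chr2:42361198-42361227, minus strand): gaggcggggtCCTTCTCTggggcggtcgcg
UQCRH (chr1:46303688-46303717, plus strand): cttacaagtcCTTCTTgatcctgaactggg
ATP5O (chr21:33915785-33915814, minus strand): gcgcgtttctCTCTTCCCactcgggtttga
ATP5G2 (chr12:53676064-53676093, minus strand): cgctgctccgCCCCTCTCTgtcttctctgc
ATP5E (chr20:59032316-59032345, minus strand): gtggtctgatCTTCCTgcggctgaaccgcc
ATP5L (chr11:118401596-118401625, plus strand): tgcagcgggtCCTTCCggcgggtgacattc
NDUFC1 (chr4:139302532-139302561, minus strand): atgggccccaCCTCCCgagaagagtgacgg

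The TOP-like starts belong to COX7C and COX4I1, which are subunits of cytochrome c oxidase, to COX7A2L, a relative of COX7A2, to UQCRH, the hinge protein of complex III, to 4 subunits of ATP synthase and to NDUFC1. None of the complex II genes and none of the complex I core subunits with a window had one. Of the 8 genes with a LARP1 binding site described below, 6 have a start window here, and ATP5J2 and UQCRB were not matched. COX7A2L is among the lines above, and the other 5 are printed for comparison; none of these 5 begins with a TOP-like run.
NDUFA7 (chr19:8321356-8321385, minus strand): tgcgcccttcagtatcgcggacggaagatg
NDUFB10 (chr16:1959528-1959557, plus strand): ggcgtcctctgtagcgggcgacctaggccg
NDUFA12 (chr12:95003678-95003707, minus strand): cccgggaggcggggccagcgaggcaagatg
COX6B1 (chr19:35648313-35648342, plus strand): tccggctggtagtagttccgcttcctgtcc
ATP5I (chr4:674257-674286, minus strand): tctgcaggttgtgcttccggtgcggaggtc

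Promoters of this pathway are known for sites of the transcription factors NRF1 and GABPA (NRF2). The letters GCGCATGCG, the core of the NRF1 motif, or their reverse CGCATGCGC, lay in the window of 12 of 74 genes (16.2%), against 4.68% of the 8888 expressed genes, 1.49% of cytoplasmic and 4.35% of mitochondrial RP genes. The forward and reverse letters overlap each other. The letters CCGGAAGT (GABPA, reverse ACTTCCGG) were found in 11 genes (14.9%), against 11.1% of expressed genes, and AAGATGGC (YY1, reverse GCCATCTT), which can also span a start codon, in 11 genes (14.9%), against 7.08%. Among RP genes the GABPA letters were found in 16.4% of cytoplasmic and 17.4% of mitochondrial ones, and the YY1 letters in 11.9% and 30.4%. Over all 35116 windows these shares were 1.92%, 4.14% and 2.89%. The 2 windows below are shown because the NRF1 letters, in capitals, span the annotated start, which is the 11th base printed. These matches are descriptions of letters and do not show binding.
NDUFA8 (chr9:122159760-122159789, minus strand): ccggatGCGCATGCGcaggcgccgtgtggc
NDUFAF5 (chr20:13785018-13785047, plus strand): gcgctgGCGCATGCGcacaaaaagcgccgg

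To learn which of these mRNAs LARP1 contacted, the lists of LARP1 binding sites were searched. A gene was counted as bound with a site of at least 1 RPM. Under growing conditions, 2 of 87 expressed members were bound (2.30%), against 1.74% of all 10991 expressed mRNA genes. Under mTOR-inactive conditions 6 of 87 were bound (6.90%), against 3.78% of all. Highly expressed genes are more often bound. Of the members with a transcript of at least 50 RPKM, 2 of 52 (3.85%) and 5 of 52 (9.62%) were bound, whereas 8.12% and 18.7% of all 948 such genes were bound under growing and mTOR-inactive conditions. The members thus lay above the share of all genes and below the share of genes of at least 50 RPKM. The latter are not matched to the members in level. They include 82 cytoplasmic RP genes, of which 27 were bound under growing and 57 under mTOR-inactive conditions. With 1 library per condition neither difference was tested.

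Under growing conditions, the site with the most reads lay in the 3′UTR of NDUFA7, an accessory subunit of complex I, at nt 413 to 436 of NM_005001.3, with 538.1 RPM. The other site lay in the CDS of NDUFB10, also an accessory subunit of complex I, at nt 393 to 409 of NM_004548.2, with 75.0 RPM. As the authors' ratio to transcript RPKM, which they multiply by a constant for the kilobase in RPKM, these values were 9049 and 461.2. Among 1940 distinct mRNA sites of that library they ranked 90 and 144 by RPM. The median site of at least 1 RPM had 170.8 RPM, so that NDUFA7 lay above and NDUFB10 below it.

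Under mTOR-inactive conditions, the largest value among the members was 813.7 RPM in the 3′UTR of NDUFA12, an accessory subunit of complex I, at nt 536 to 559 of NM_018838.4. ATP5J2, a subunit of the membrane part of ATP synthase, had 419.2 RPM in the 3′UTR (nt 430 to 452 of NM_001003713.2), and the same site was listed on 4 isoforms. COX7A2L, a protein that joins complexes III and IV into supercomplexes, had 158.9 RPM in the 3′UTR (nt 918 to 936 of NM_004718.2). These 3 sites ranked 134, 227 and 330 among 2024 distinct mRNA sites, and the first 2 lay above the median of 302.9 RPM for sites of at least 1 RPM.

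The remaining 3 sites of the mTOR-inactive library had fewer reads. COX6B1, a subunit of complex IV, had 69.4 RPM in the 3′UTR (nt 462 to 478 of NM_001863.4). ATP5I, which encodes subunit e of ATP synthase, had 29.6 RPM in the CDS (nt 111 to 127 of NM_007100.3). UQCRB, the ubiquinone-binding subunit of complex III, had 28.2 RPM in the 3′UTR (nt 529 to 546 of NM_006294.4), and the same values were listed on the pseudogene UQCRBP1, so that the reads cannot be assigned to one of them. At COX6B1 the deposited T-to-C column, which at the other 7 sites was at 99.8% to 100.1% of its usual multiple of RPM, was at 0.297% of it. The meaning of that column is not given in the sources used here, and without this site 5 members were bound.

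**Figure D1:**
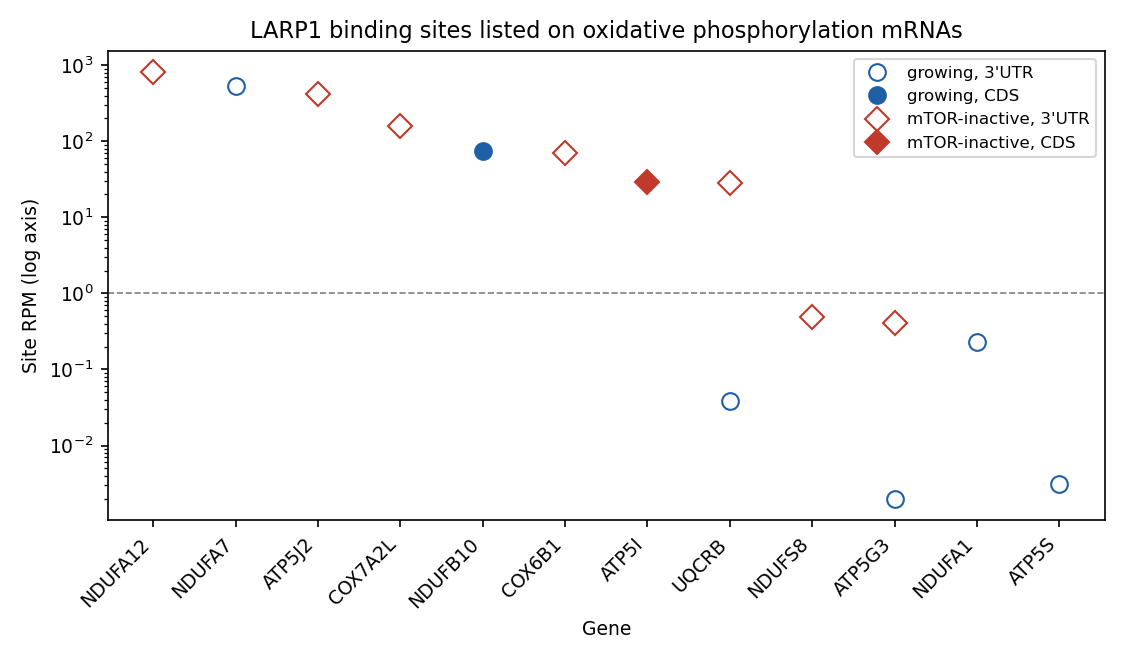
LARP1 binding sites on members, with site RPM on a log axis for each gene, by condition and region; each symbol is 1 distinct site in 1 library, and the dashed line marks 1 RPM. Of the 8 bound genes, NDUFA7 and NDUFB10 were bound under growing and the other 6 under mTOR-inactive conditions.

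No member was bound in both libraries. UQCRB and ATP5G3 were listed in both, but at positions that did not overlap and with 0.0388 and 0.00200 RPM under growing conditions. Under growing conditions, NDUFA1 (0.233 RPM) and ATP5S (0.00310 RPM) were also listed below 1 RPM, as were NDUFS8 (0.490 RPM) and ATP5G3 (0.406 RPM) under mTOR-inactive conditions. A T-to-C column of 1 went with 0.0388 RPM under growing conditions, and sites of 0.0388 RPM were listed on many genes. Sites differed between the libraries in other genes as well. Over all mRNAs, 15.5% of 245 distinct sites of at least 1 RPM under growing conditions, and 8.59% of 547 under mTOR-inactive conditions, overlapped a site in the other library by at least 1 nt.

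By region, the sites of at least 1 RPM on members were 1 in the CDS and 1 in the 3′UTR under growing conditions, and 1 in the CDS and 5 in the 3′UTR under mTOR-inactive conditions. In the 5′UTR there was none, at any RPM, in either library. Over all mRNAs, 5′UTR sites made up 4.90% of the sites of at least 1 RPM in the growing library and 6.58% in the mTOR-inactive library, CDS sites 39.2% and 37.5%, and 3′UTR sites 55.9% in both. With so few sites on members, a share of 5′UTR sites like that of all mRNAs could have gone unseen. Summed over members, site RPM was 613.1 in the growing library and 1519 in the mTOR-inactive library, which is 0.231% and 0.529% of the RPM on all distinct mRNA sites of at least 1 RPM.

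Of the 9 genes with a TOP-like start, 1 was bound, a count too low to set them apart from the members as a whole (6.90%) or from all genes of at least 50 RPKM (18.7%) under mTOR-inactive conditions. This was COX7A2L under mTOR-inactive conditions, where the site lay in the 3′UTR, and its other annotated start has no pyrimidine run. COX7C, COX4I1, UQCRH, ATP5O, ATP5G2, ATP5E, ATP5L and NDUFC1 had no site listed in either library. Cytoplasmic RP genes, of which 28 of 85 (32.9%) and 58 of 85 (68.2%) were bound, had 5′UTR sites of at least 1 RPM on 3 genes under growing and 13 genes under mTOR-inactive conditions. The median level of the highest transcript was 710.7 RPKM for those RP genes and 61.5 RPKM for the members. Mitochondrial RP genes, which also serve the respiratory chain and are less abundant (median 35.5 RPKM), were bound in 1 and 2 of 76 cases and had 0 genes with a 5′UTR site. These shares were not tested, and level moved with binding.

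In one library or the other, 8 of 87 expressed members were bound (9.20%), against 5.06% of all expressed mRNA genes and 22.5% of those of at least 50 RPKM. By complex these were 3 of 44 expressed genes of complex I, 0 of 4 of complex II, 1 of 9 of complex III, 2 of 12 of complex IV and 2 of 16 of complex V. The 3 of complex I are among its 30 accessory subunits. With so few genes per class, these counts do not set the complexes apart. The bound genes were not those with the most mRNA. Ranked by gene total, which is the RPKM summed over all accessions of a gene, noncoding ones included, they lay at ranks 6 (ATP5J2), 11 (ATP5I), 18 (COX6B1), 23 (NDUFB10), 41 (NDUFA12), 59 (NDUFA7), 66 (COX7A2L) and 72 (UQCRB) of 87. Of the 10 members with the highest totals only ATP5J2 was bound, while COX7C, ATP5B, UQCRH, COX6A1 and COX7B, the first 5, had no listed site. The median total was 124.0 RPKM for the 8 bound and 84.6 RPKM for the other 79 members.

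The mRNA levels of the members were then compared across complexes. Reads that matched several isoforms were divided evenly by the authors, and a gene total therefore adds the shares up again. Of 91 genes, 66 had a total above 50 RPKM, 35 above 100 RPKM and 4 below 1 RPKM. The median total was 164.6 RPKM in complex V, 148.8 RPKM in complex IV and 105.1 RPKM in complex III. It was 72.6 RPKM for accessory and 64.0 RPKM for core subunits of complex I, and 59.4 RPKM in complex II. Assembly factors of complex I, which act on the forming complex and are not part of it when finished, had a median of 10.1 RPKM. Among them NDUFAF3, at 86.4 RPKM, lay above the median of the subunits of complex I.

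**Figure D2:**
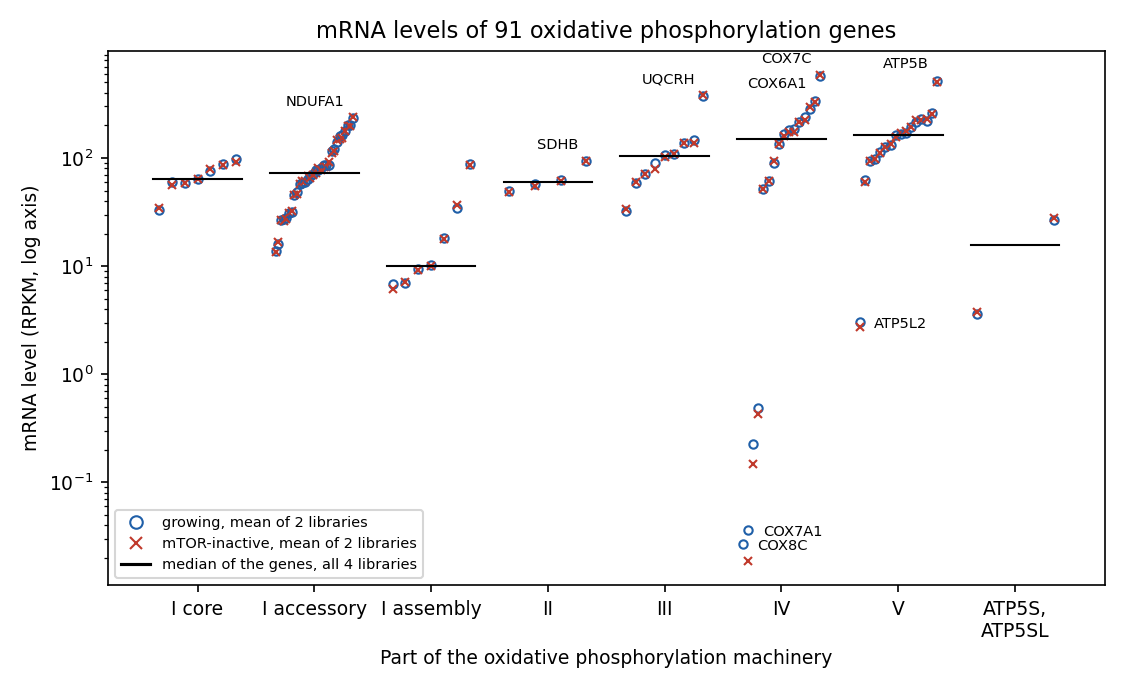
Level of each of the 91 genes as RPKM summed over its accessions, on a log axis, by complex; circles and crosses are means of 2 libraries under growing and mTOR-inactive conditions, and a mean of 0 is not drawn. Complexes III to V have the higher medians (105.1 to 164.6 RPKM), and the 4 genes below 1 RPKM are all in the complex IV group. Circles and crosses nearly coincide for genes above 1 RPKM.

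COX7C, a small subunit of complex IV, had the highest level, with 573.5 and 576.2 RPKM in growing cells, then 607.7 and 562.5 RPKM after PP242. ATP5B, the catalytic beta subunit of ATP synthase, followed with 522.7 and 511.4 RPKM and with 508.8 and 509.0 RPKM. COX6A1 had 344.2 and 332.3 RPKM, then 337.7 and 323.8 RPKM. In complex III, the main accession of UQCRH had 301.5 and 295.7 RPKM, then 314.9 and 295.2 RPKM. A second accession named UQCRH, NM_001089591.1, is UQCRHL in RefSeq, a near-identical gene, and its 75.9 RPKM in both growing libraries and 81.4 and 78.3 RPKM after PP242 may be shared reads. For COX7C, COX6A1 and UQCRH the values of the conditions overlapped, and for ATP5B both values after PP242 lay just below the growing values.

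In complex I the highest levels were those of the accessory subunits NDUFA1 (234.0 and 232.6 RPKM, then 248.2 and 226.9 RPKM after PP242) and NDUFA13 (208.0 and 195.0 RPKM, then 195.8 and 202.2 RPKM). In complex V, ATP5O had 195.5 and 192.3 RPKM, then 195.3 and 193.4 RPKM. All 3 overlapped between conditions. The 4 subunits of complex II, the only enzyme shared with the citric acid cycle, had mean gene totals from 49.0 to 93.5 RPKM over all libraries. Gene totals were 49.4 ± 0.192 (SD, n = 2) for SDHA, the flavoprotein, 93.3 ± 0.862 for SDHB, the iron-sulfur subunit, and 57.3 ± 0.331 and 63.0 ± 1.24 RPKM for the membrane anchors SDHC and SDHD under growing conditions. Under mTOR-inactive conditions they were 48.5 ± 0.620, 93.7 ± 2.51, 55.4 ± 1.57 and 61.9 ± 0.211 RPKM. The order SDHB, SDHD, SDHC, SDHA held in both conditions, with differences between neighbors larger than these SDs.

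Several complex IV subunits have a second isoform that is made in muscle, testis or other tissues, and in these cells 1 form of each pair dominated. COX7A1, the heart and muscle form, was listed at 0, 0.0732, 0.0374 and 0 RPKM in growing libraries 1 and 2 and mTOR-inactive libraries 1 and 2, against 77.9, 76.7, 78.3 and 74.1 RPKM for COX7A2. COX6B2, the testis form, had 0.488, 0.477, 0.446 and 0.417 RPKM, against 184.3, 178.5, 174.7 and 170.5 RPKM for COX6B1. COX8C had 0.0539 RPKM in growing library 2 and was listed at 0 in the other 3, against 221.4 to 245.5 RPKM for COX8A. NDUFA4L2, which is induced in hypoxia, had 0.145 to 0.280 RPKM, and NDUFA4 59.8 to 63.8 RPKM. The 3 genes for the c subunit of ATP synthase, which encode the same mature protein, were all present. Gene totals under growing conditions were 164.0 ± 2.00 RPKM for ATP5G1, 227.1 ± 3.03 RPKM for ATP5G2 and 113.9 ± 2.18 RPKM for ATP5G3 (SD, n = 2), and the order ATP5G2, ATP5G1, ATP5G3 was the same after PP242.

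The levels of these mRNAs differed little between growing and PP242-treated cells. With limma on log2(RPKM + 1), 141 member transcripts passed the filter of 1 RPKM on the mean and were tested among 21014, with Benjamini-Hochberg adjustment over all of them and a threshold of 0.05. None was called higher after PP242, against 3.48% of all transcripts tested, and 1 was called lower (0.709%), against 6.45% of all. At an unadjusted p under 0.05 there were 2 higher and 10 lower members, 8.51% of the members tested, against 27.9% of all transcripts. The median log2 change was -0.0056 over members and -0.0013 over all, with 67 members above and 74 below 0. In these bulk libraries, fewer cells with an mRNA and less of it per cell cannot be told apart, and RPKM gives shares of the library, not amounts.

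The transcript called lower encodes UQCRFS1, the Rieske iron-sulfur protein of complex III. It had 89.9 and 89.1 RPKM in growing cells, then 81.1 and 78.4 RPKM after PP242. Both values after PP242 lay below both growing values. The log2 change was -0.16 with a standard error of 0.03 and an adjusted p of 0.0175 from limma, a small difference. The call was lost in limma without the filter on low values (adjusted p = 0.0970) and without growing library 1 (0.0728), growing library 2 (0.0572) or mTOR-inactive library 2 (0.0585). CYC1, the cytochrome c1 subunit of the same complex, had 148.5 and 144.6 RPKM, then 137.8 and 135.7 RPKM. Its log2 change of -0.10 had an adjusted p of 0.0561 in limma and did not pass the threshold. CYC1 passed in limma with the replicate number as a block (adjusted p = 0.0367) and with a filter at a mean of 5 RPKM (0.0379). The core proteins UQCRC1 and UQCRC2 had log2 changes of -0.0016 and -0.0011, with 95% intervals of -0.07 to 0.06 and -0.05 to 0.05, and were picked after their values were seen.

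Further members near the threshold were also picked after their values were seen. NDUFB3, an accessory subunit of complex I, had 36.0 and 34.8 RPKM, then 39.3 and 37.7 RPKM. Its log2 change was 0.12, with an adjusted p of 0.0765 in limma. With the replicate number as a block NDUFB3 was called higher (adjusted p = 0.0398 in limma). COX5A, a subunit of complex IV, had 183.5 and 186.4 RPKM, then 174.5 and 176.9 RPKM, with a log2 change of -0.07 and an adjusted p of 0.0886. NDUFA8, an accessory subunit of complex I, had 75.3 and 79.5 RPKM, then 72.8 and 71.3 RPKM, with a log2 change of -0.10 and an adjusted p of 0.108. In all 3 genes the conditions did not overlap, which held for 31 members above and 30 below (22.0% and 21.3%), against 28.5% and 30.0% of all transcripts tested.

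**Figure D3:**
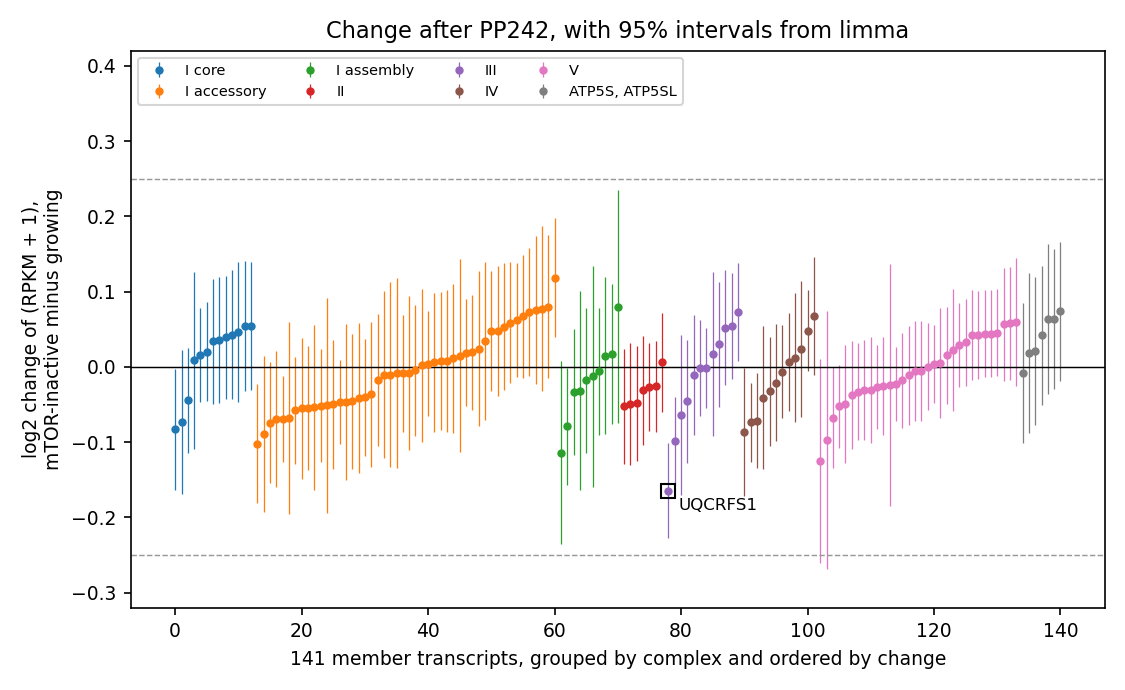
Log2 change of (RPKM + 1) after PP242 for 141 member transcripts with 95% intervals from limma, grouped by complex and ordered by change; dashed lines mark -0.25 and 0.25, and the square marks the transcript with an adjusted p under 0.05. Of the 141 intervals 139 lie within the dashed lines, and UQCRFS1 is at -0.16.

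How large a change could have been missed was read from the intervals. For 139 of 141 member transcripts (98.6%) the 95% interval of the log2 change lay within -0.25 to 0.25, which is a 1.19-fold change, against 85.2% of all transcripts tested. The exceptions were ATP5L2 (-0.26 to 0.01) and a transcript of ATP5D (-0.27 to 0.07). A change of over 0.1 in either direction was estimated for 5 members (3.55%) and for 25.9% of all transcripts. In simulated data for this comparison, 93 of 200 transcripts changed by 0.15 and 200 of 200 changed by 0.5 were called among 21014. In the data themselves 731 transcripts were called higher and 1356 lower. With only 200 changed, the adjustment is stricter in the simulation, which therefore cannot give the share of small changes missed here. Members are abundant, and their standard errors were lower (median 0.03) than those of all transcripts (0.04).

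By complex, the medians of the log2 change stayed close to 0. They were 0.034 for 13 transcripts of complex I core subunits, -0.0081 for 48 of accessory subunits, -0.015 for 10 of assembly factors, -0.031 for 7 of complex II, -0.0014 for 12 of complex III, -0.013 for 12 of complex IV and -0.0056 for 32 of complex V. In complex II both values after PP242 lay below both growing values in 6 of 7 transcripts, 4 of which are isoforms of SDHC, and none passed the test. Of all transcripts tested, 30.0% had both values below and 28.5% both above. In complex I core subunits, 10 of 13 estimates were above 0, and 5 of the 13 transcripts are isoforms of NDUFS1. Isoforms of a gene share reads and are not separate evidence. Complex V had 10 transcripts with both values above and 7 with both values below, and 5 of those above are isoforms of ATP5A1, the alpha subunit.

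The spread between replicates was of the same size as these changes and had a direction. In 115 of 141 members (81.6%) the first mTOR-inactive library had a higher value than the second, against 44.1% of all transcripts tested. In 99 members (70.2%) the first growing library was higher than the second, against 49.3% of all. The median difference on the log2 scale between the first and second library was 0.037 in members after PP242 and 0.026 under growing conditions, and -0.0077 and -0.0010 over all transcripts. The median log2 change between conditions, -0.0056, was smaller than both. What sets the libraries apart was not tested. Without the second mTOR-inactive library the median change of the members was 0.017, and without the first it was -0.022, so that its sign rests on single libraries.

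**Figure D4:**
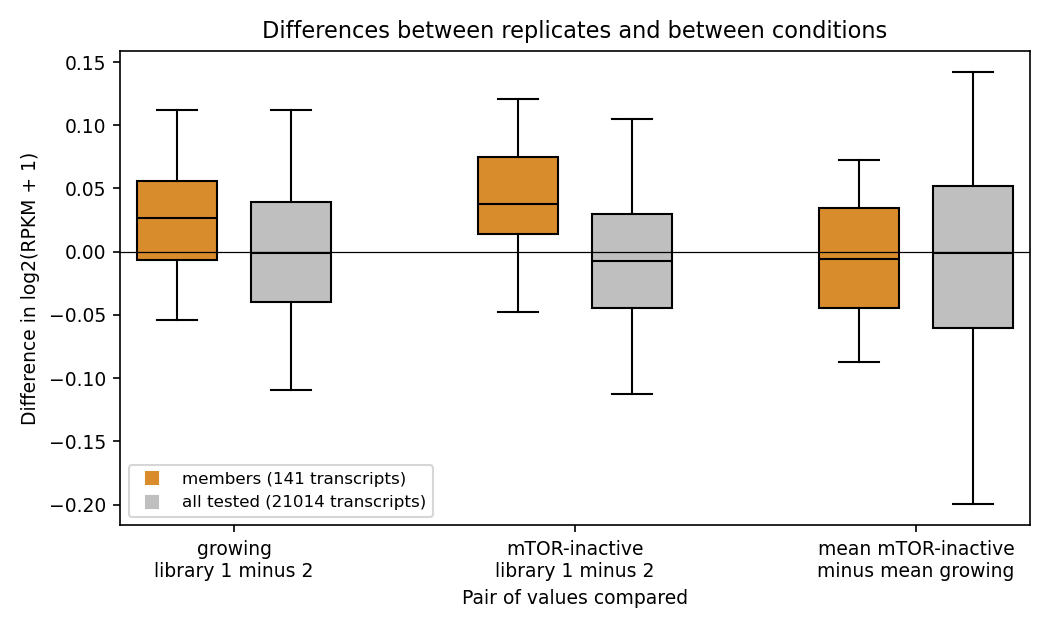
Differences in log2(RPKM + 1) between the 2 libraries of each condition and between the conditions, for members and for all tested transcripts; boxes span the quartiles with the median as a line, and whiskers run from the 5th to the 95th percentile. Members are shifted upward between libraries of the same condition (medians 0.026 and 0.037) and centered near 0 between conditions (-0.0056).

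The bound genes and those with a TOP-like start also had small differences in mRNA level. Of the 8 bound genes, 4 had an estimate above and 4 below 0 in their main transcript, from -0.07 (COX6B1 and NDUFB10) to 0.08 (NDUFA12), and 0 passed the test in limma. Over all transcripts 3.48% were called higher and 6.45% lower, so that 0 of 8 is near the background. NDUFA12 had 54.3 and 51.9 RPKM in growing cells, then 58.0 and 54.4 RPKM after PP242, just above without overlap. NDUFA7, bound under growing conditions, had 60.3 and 58.6 RPKM, then 63.1 and 59.9 RPKM, which overlap. NDUFB10 had 165.7 and 159.7 RPKM, then 158.5 and 150.5 RPKM, both below. ATP5I had 158.0 and 159.9 RPKM, then 171.5 and 160.3 RPKM. For UQCRB, of which the main transcript had 9.22 and 9.17 RPKM and then 9.64 and 9.54 RPKM, reads are divided among several accessions. A site that appeared in only 1 of the PAR-CLIP libraries thus went with mRNA levels within 0.18 on the log2 scale of each other by their 95% intervals.

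For the 15 transcripts of the 9 genes with a TOP-like start, log2 changes ran from -0.03 to 0.03 with a median of 0.0036, and 8 lay above and 7 below 0. Of the 15, 6 are isoforms of NDUFC1, which also has annotated starts that are not TOP-like. The second accession named UQCRH, with a log2 change of 0.07, is not among them because RefSeq gives it to UQCRHL. COX4I1, for example, had 219.3 and 210.1 RPKM, then 214.6 and 216.5 RPKM, and ATP5E had 168.2 and 166.3 RPKM, then 175.3 and 164.6 RPKM. Both overlapped between conditions. For comparison, the median log2 change was 0.03 over 136 transcripts of cytoplasmic RP genes, of which 3 were called higher and 0 lower, and -0.07 over 110 transcripts of mitochondrial RP genes, of which 13 were called lower (11.8%) and 0 higher. Of all transcripts tested, 3.48% were called higher and 6.45% lower. These medians share the same libraries and were not tested against each other.

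Genes that build, link or regulate the machinery were taken from lists and read beside the members. Of 66 transcripts of 37 assembly factors, which insert cofactors and join subunits, 2 were called higher (3.03%) and 12 lower (18.2%), against 3.48% and 6.45% of all transcripts tested. The 12 belong to 7 genes. SCO2, which delivers copper to complex IV, had 9.96 and 8.98 RPKM in its main transcript, then 7.49 and 7.11 RPKM after PP242, a log2 change of -0.33 with an adjusted p of 0.0176 in limma. COX20, another complex IV assembly factor, had 18.7 and 19.0 RPKM, then 15.6 and 15.7 RPKM, with a log2 change of -0.25 and an adjusted p of 0.00532. The others were COA3, COA4 and COA6 of complex IV, SDHAF1 of complex II and TMEM70 of complex V, at -0.13 to -0.17.

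The 2 assembly factors called higher were COX19, a copper-handling protein, with 3.96 and 4.21 RPKM and then 5.21 and 5.35 RPKM (log2 change 0.30), and LRPPRC, which stabilizes mitochondrial mRNAs, with 40.9 and 42.2 RPKM and then 45.9 and 48.1 RPKM (log2 change 0.17). No assembly factor of this list was bound by LARP1 in either library, against 5.06% of all expressed genes, and 0 of 37 is near that background. These genes were named after their values were seen.

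Among 23 transcripts of 13 genes for electron carriers and nucleotide exchange, 1 was called in each direction (4.35%), against 3.48% higher and 6.45% lower of all transcripts tested, so that these counts are near the background. CYCS, cytochrome c, fell from 62.6 and 62.8 RPKM to 58.6 and 58.5 RPKM (log2 change -0.10, adjusted p = 0.0489 in limma). SLC25A6, an ADP/ATP carrier, rose from 160.6 and 153.8 RPKM to 173.0 and 170.7 RPKM (log2 change 0.13, adjusted p = 0.0417 in limma). Under mTOR-inactive conditions CYCS had a LARP1 binding site of 531.1 RPM in the 3′UTR (nt 1292 to 1315 of NM_018947.5), and SLC25A5, another ADP/ATP carrier, one of 258.2 RPM in the 3′UTR. Neither was listed at 1 RPM or more under growing conditions. These were 2 of the 13 genes, against 3.78% of all expressed mRNA genes and 18.7% of those of at least 50 RPKM under mTOR-inactive conditions. The difference was not tested.

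Among 39 transcripts of 20 tested regulators of mitochondrial gene expression, 0 were called higher and 2 lower (5.13%), near the 3.48% and 6.45% of all transcripts tested. PPRC1, a coactivator related to PGC-1, fell from 28.3 and 28.2 RPKM to 21.8 and 22.2 RPKM, a log2 change of -0.35 with an adjusted p of 0.00208 in limma. TFB2M, a mitochondrial transcription factor, fell from 14.3 and 14.1 RPKM to 12.3 and 12.4 RPKM (log2 change -0.18, adjusted p = 0.0161 in limma). NRF1 itself, at 3.83 and 3.58 RPKM and then 4.09 and 4.07 RPKM in its main transcript, did not pass the test. TFAM, which packages mitochondrial DNA, had 62.0 and 60.5 RPKM, then 60.0 and 62.0 RPKM, and overlapped between conditions.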

How the data were processed

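The authors used Bowtie and the GRCh37 transcriptome for mapping. They deposited mRNA-seq values as RPKM per RefSeq transcript and library, from perfect matches, with reads of several loci divided evenly. They deposited LARP1 binding sites as RPM per site, with a T-to-C column of unstated meaning, which is called a score. A ratio of RPM to transcript RPKM, multiplied by a constant for the kilobase in RPKM, was also deposited. Clusters had been filtered on T-to-C conversion.

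Repeated lines (1273 of 39711) were dropped. For mRNA levels, limma 3.58.1 (R 4.3.3; eBayes with trend) was run on log2(RPKM + 1), which understates changes of low transcripts, at a mean of at least 1 RPKM, and checked on simulated data. A site on several isoforms was counted once per gene. Other steps used Python 3.11.15, numpy 2.4.6, pandas 2.3.3 and matplotlib 3.10.9. All per-sample columns were used.

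The members, gene lists and tests were chosen with earlier results of these data known. Genes were named if called, bound, among the 2 of their complex with the most abundant single transcript, in an isoform pair or in complex II; others were picked after their values were seen. Alternatives were pseudocounts, filters, scaling, a replicate block, single transcripts per gene, left-out libraries and site minimums. Sequences of the bound sites were not analysed here.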

Additional observations from a re-analysis of the deposited data

How the results depend on the processing

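With 2 libraries per condition, the smallest two-sided p of an exact permutation test is 0.333, so calls rest on the variance that limma shares across transcripts. The count of members called higher was 0 in all settings except the replicate block, where it was 1 (NDUFB3), and the count called lower was 1 in 6 of 12 settings, 0 in 4 and 2 in 2. The count called lower was 0 without growing replicate 1, growing replicate 2 or mTOR-inactive replicate 2 and with no filter beyond a value above 0. It was 2 (UQCRFS1 and CYC1) with a filter at a mean of 5 RPKM and with the replicate block. Over all 21014 transcripts, the deviations of same-numbered libraries had a correlation of 0.04 (2 pairs), and the labels give them only a number. In members, however, the first library was above the second in both conditions more often than not, and the block raised the members at an unadjusted p under 0.05 from 12 to 27. Leaving out single libraries gave 0 to 0 members higher, 0 to 1 lower and a median log2 change of -0.022 to 0.017. UQCRFS1 kept its direction in all 11 settings tried and missed the threshold in the 4 named beside its value. Summed site RPM on members under mTOR-inactive conditions was 1491 without the site shared with another gene, 3619 with copies on isoforms counted and 1449.7 without the COX6B1 site, an alternative added after seeing the data. The counts of bound genes stayed within 1.5 times the main count at site minimums of 0.1 and 10 RPM. Read counts were not used, so low site RPM has no counting error.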
